A study of Mus musculus with 12 samples.

Results

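The miR-1a and miR-133a families were examined in gastrocnemius, the large calf muscle, of young and aged mice. The members were the 5 mature miRNAs mmu-miR-1a-3p, mmu-miR-1a-1-5p, mmu-miR-1a-2-5p, mmu-miR-133a-3p and mmu-miR-133a-5p (the mouse prefix is left out from here on), taken by name from the 1900 mature miRNAs of the table, with the rows of several genomic copies summed. All animals were male C57BL/6 mice with no treatment in the labels. The young group was 6 months old (6 libraries) and the aged group 24 months old (6 libraries), with 1 small RNA library per animal and all 12 libraries sequenced in 1 lane. Levels are FPKM, the reads of a mature miRNA scaled to its length and to the depth of the library, and the short length of about 22 nucleotides makes the values of abundant miRNAs large.

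miR-1 and miR-133a are muscle-enriched miRNAs that are transcribed together from paired hairpins and that are induced when myoblasts differentiate. miR-1 is known to favour differentiation, in part by repressing the histone deacetylase HDAC4, and miR-133a is known to act on proliferation, in part through serum response factor. Each hairpin is cut into a 5p and a 3p arm. In both families the 3p arm is the one usually loaded into the silencing complex, and the 5p arm, the passenger, is mostly degraded.

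The sequences below, from RefSeq (GRCm38.p6), show the 1 of 5 members that was matched there and, for comparison, the arms of the related hairpins Mir206 and Mir133b on chromosome 1. They are written 5′ to 3′ with the seed, bases 2 to 8, in capitals. miR-1a-1-5p was read from chr2:180389057-180389079 on the plus strand, and the other arms also lie on the plus strand.
miR-1a-1-5p: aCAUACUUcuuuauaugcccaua
miR-206-5p: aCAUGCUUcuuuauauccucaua
miR-206-3p: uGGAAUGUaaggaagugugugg
miR-133b-5p: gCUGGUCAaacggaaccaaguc
miR-133b-3p: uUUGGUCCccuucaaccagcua
miR-1a-1-5p and miR-206-5p had the same base at 20 of 23 positions. With positions counted from 1 at the 5′ end and the base of miR-1a-1-5p written first, they differed by A5G inside the seed and by G17C and C19U outside it. The seed CAUACUU of miR-1a-1-5p was shared by 0 other miRNAs among the 1603 of the table with a RefSeq sequence. The other members, with miR-1a-2-5p, are not among these, so whether they share this seed was not compared.

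Each family has 2 genomic copies, arranged as 2 pairs of hairpins. In the mm10 assembly (GENCODE M21), Mir1a-1 lies at chr2:180389048-180389124 and Mir133a-2 at chr2:180398379-180398482, both on the plus strand and 9254 bases apart. No GENCODE gene other than the hairpins covers them, and the RefSeq annotation of the same assembly (GRCm38.p6) places both inside the long non-coding RNA Mir1a-1hg. The other pair, Mir133a-1 at chr18:10782909-10782976 and Mir1a-2 at chr18:10785481-10785552, lies on the minus strand, 2504 bases apart. It sits in an intron of Mir133a-1hg on the same strand and in an intron of Mib1, which encodes a ubiquitin ligase of Notch signalling, on the opposite strand. The 3p arms and miR-133a-5p carry the same name at both copies, and the 5p arms of miR-1a carry separate names, miR-1a-1-5p and miR-1a-2-5p.

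Depth differed widely between libraries and set how well each member was known. Whole-read steps in the low values gave estimates of 120401 to 7761592 mapped reads, a 64.5-fold range, with young 6 and aged 3 the deepest and aged 5 the shallowest. Depth also differed between the ages. Apart from young 6, the young libraries had 212111 to 609777 reads. Apart from aged 5, the aged libraries had 1229634 to 7761592. For miRNAs with few reads, depth and age can therefore not be fully told apart. The value of 1 read of 22 nucleotides ran from 5.86 to 377.5 FPKM. The cardiac marker miR-208a-3p was at 0 in all 12 libraries, and the liver marker miR-122-5p had 2 reads in all. In bulk tissue, fewer cells of a type and less RNA per cell cannot be told apart.

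The 5 members spanned more than 5 orders of magnitude. The most abundant was miR-133a-3p, in place 3 of all miRNAs by mean level. It was followed by miR-1a-3p in place 20, miR-133a-5p in place 68, miR-1a-1-5p in place 289 and miR-1a-2-5p in place 578. Summed over the 12 libraries these means rest on an estimated 2474532 reads of miR-133a-3p, 124417 of miR-1a-3p, 7416 of miR-133a-5p, 66 of miR-1a-1-5p and 10 of miR-1a-2-5p. Together the members held 13.1% ± 2.67 of the summed FPKM of young libraries and 11.3% ± 1.02 of that of aged libraries (SD, n = 6 each).

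**Figure D1:**
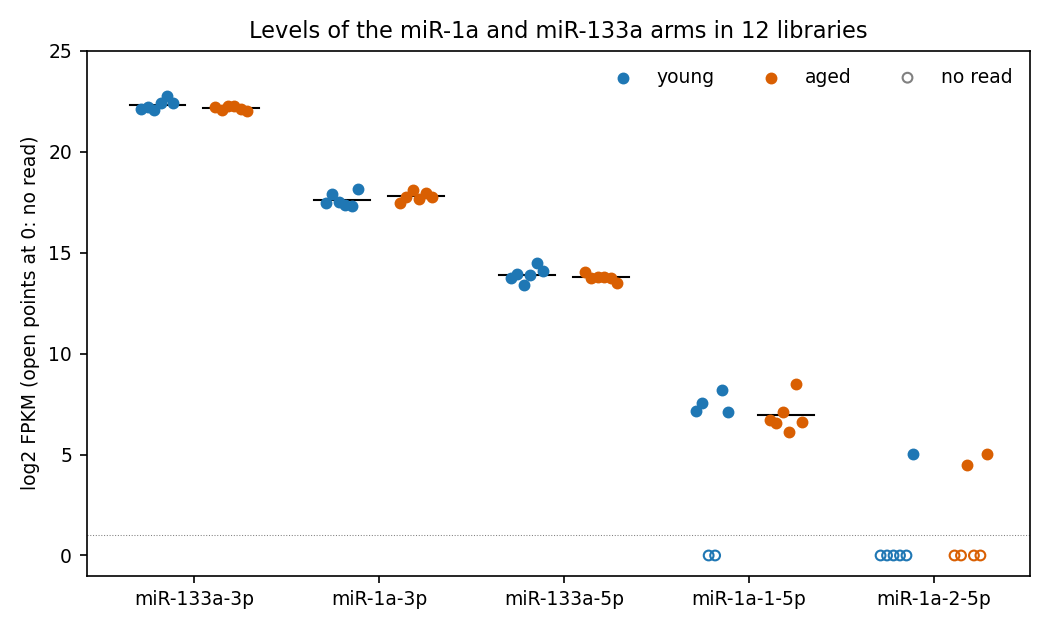
Level of each member (log2 FPKM, y axis) in each of the 12 libraries, with young muscle in blue, aged muscle in orange and replicates 1 to 6 from left to right within each group. Black lines are group means of log2 FPKM, drawn where all 6 libraries had a read, and open points below the dotted line had no read. The order of the 5 members was the same in both ages, the groups overlapped for each, and the 5p arms of miR-1a reached 0 in some libraries.

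miR-133a-3p, the guide arm of miR-133a, did not pass the test for a difference with age. Its level had a minimum of 4357320, a median of 5248460 and a maximum of 7152420 FPKM in young muscle, and 4223480, 4771050 and 5075110 FPKM in aged muscle. The groups overlapped, although none of the 6 aged libraries lay above the young median (0 of 6). The means were 5367290 ± 1029290 and 4709740 ± 332187 FPKM (SD, n = 6 each). The log2 change from young to aged was -0.17 (SE 0.15, 95% interval -0.48 to 0.14, limma adjusted p = 0.679). The coefficient of variation was 19.2% in young and 7.05% in aged muscle, and counting error was at most 0.905% in a library. Of the 6 young libraries, young 5 stood highest at 7152420 FPKM, and without it the log2 change was -0.08.

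miR-1a-3p, the guide arm shared by both miR-1a hairpins, did not pass the test either, and its mean was the higher one in aged muscle. Its level had a minimum of 164190, a median of 183574 and a maximum of 288865 FPKM in young muscle, and 182829, 222747 and 281936 FPKM in aged muscle. The groups overlapped, with 5 of 6 aged libraries above the young median. The means were 205783 ± 50199 and 229086 ± 34666 FPKM (SD, n = 6 each). The log2 change was 0.17 (SE 0.14, 95% interval -0.11 to 0.46, limma adjusted p = 0.651). Young 6 was the highest of the 12 libraries, and without it the log2 change was 0.28 with an unadjusted p of 0.0437 and a limma adjusted p of 0.345. It was 0.11 without aged 3, the other deep library, 0.12 without young 5 and 0.10 with depth as a covariate. The largest value was 1.76 times the smallest over the 12 libraries, whereas counting error was at most 3.85%.

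miR-133a-5p, the passenger arm of miR-133a, had reads in all 12 libraries and did not pass the test. Its level ran from 10734 to 22694 FPKM with a median of 15393 in young muscle, and from 11545 to 16903 FPKM with a median of 14056 in aged muscle. The groups overlapped, and young 5 was again the highest library. The log2 change was -0.14 (SE 0.15, 95% interval -0.45 to 0.17, limma adjusted p = 0.728), and it was -0.03 without young 5, -0.09 without aged 6 and -0.25 without young 3 (limma adjusted p = 0.509). Its reads ran from 37 in aged 5 to 2488 in young 6, so that counting error reached 16.4%.

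The passenger arms of miR-1a were near the limit of detection. miR-1a-1-5p, from the hairpin on chromosome 2, had no read in young 3 and young 4. Its level ran from 0 to 298 FPKM with a median of 141 in young muscle, and from 70.5 to 360 FPKM with a median of 101 in aged muscle. These values stand for 28 reads in young and 38 in aged muscle, of which 21 were in young 6 and 25 in aged 3, and the highest value, in aged 5, was 1 read. The log2 change was 0.35 with a wide interval (SE 0.57, 95% interval -0.82 to 1.52, limma adjusted p = 0.857), and the value rested on the settings. It was 1.94 with a pseudocount of 1 FPKM, 0.05 with one of 482 FPKM and -0.27 with limma voom on the estimated reads. Of the libraries, it was 0.05 without young 3 or without young 4, 0.11 without aged 5 and 0.62 without young 5. miR-1a-2-5p, from the hairpin on chromosome 18, had 5 reads in young 6, 4 in aged 3 and 1 in aged 6. The other 9 libraries were at 0, and it was not tested because at least 5 libraries above 0 were required.

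Read against all miRNAs, 0 of the 4 tested members passed the test, at adjusted and at unadjusted p alike, where 14 of 482 miRNAs (2.9%) passed at an adjusted p under 0.05 and 12.9% at an unadjusted p under 0.05. The 14 comprised 3 miRNAs higher in aged muscle (0.622%) and 11 lower (2.28%). None of the 4 members had groups that did not overlap (2.7% of all tested did). The median log2 change of the 4 was 0.02, against 0.07 for all 482. The SEs of miR-1a-3p, miR-133a-3p and miR-133a-5p, at 0.14 to 0.15, were below the median of 0.39 over all tested miRNAs. Their 95% intervals lay within a 1.5-fold change in either direction (0.58 on the log2 scale). The interval of miR-1a-1-5p did not.

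As shares of the summed FPKM of a library, the members gave the same picture. miR-133a-3p held 12.6% ± 2.67 in young and 10.7% ± 1.02 in aged muscle (SD, n = 6 each), a difference of -1.86 percentage points (two-sided exact permutation test, p = 0.132, adjusted p = 0.660 over the 5 members). Its share was highest in young 5 at 17.2% and lowest in young 3 at 9.38%. Without young 5 the difference was -0.94 points, and without young 3 it was -2.50 points with an unadjusted exact p of 0.0260 and an adjusted p of 0.130. miR-1a-3p held 0.481% ± 0.115 and 0.521% ± 0.0721 (SD, n = 6 each, two-sided exact permutation test, p = 0.478, adjusted p = 0.797). This difference of 0.0398 points was 0.0776 without young 6, 0.0150 without aged 3 and 0.0225 to 0.0241 without young 3, young 4 or young 5. The shares of miR-133a-5p, miR-1a-1-5p and miR-1a-2-5p gave adjusted p-values of 0.797, 0.866 and 0.866 in the same exact test.

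The balance between the families was compared next, because both 3p arms come from paired hairpins. In FPKM, miR-133a-3p exceeded miR-1a-3p in all 12 libraries. This compares read levels of 2 different sequences and not measured amounts of RNA. In young replicates 1 to 6 it did so by 25.1-, 19.9-, 23.3-, 33.6-, 43.6- and 19.4-fold. In aged replicates 1 to 6 the excess was 27.0-, 20.1-, 17.6-, 24.2-, 18.1- and 18.9-fold. The 2 highest values were those of young 4 and young 5, and the remaining young values lay among the aged ones. The geometric mean was 26.3-fold in young and 20.7-fold in aged muscle. The log2 ratio of miR-1a-3p to miR-133a-3p was -4.72 ± 0.457 in young and -4.37 ± 0.248 in aged muscle (SD, n = 6 each), a difference of 0.34 that did not pass a two-sided exact permutation test (p = 0.143, smallest possible p = 0.00216). In young 5 both miR-133a arms were at their highest and miR-1a-3p at its lowest of the 12 libraries, and without it the difference was 0.20 (exact permutation p = 0.286).

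**Figure D2:**
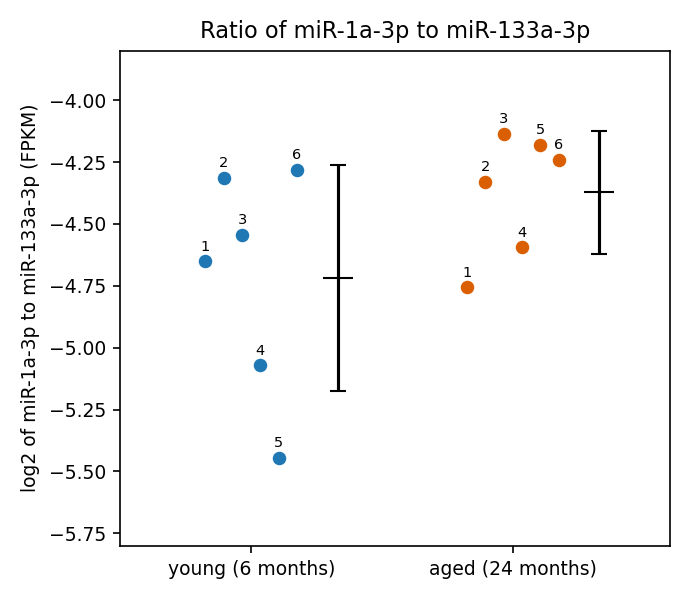
Log2 ratio of miR-1a-3p to miR-133a-3p in FPKM (y axis) for each library, with replicate numbers above the points, and the group mean and SD (n = 6) as black bars. Young libraries run from -5.44 to -4.28 and aged libraries from -4.75 to -4.13, so that the groups overlap, with young 5 and young 4 lowest.

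Across the 12 libraries the 2 guide arms did not move together detectably. Pearson's r of their log2 levels was -0.27 (permutation p = 0.417, adjusted p = 0.626 over 3 relations) and Spearman's rho was -0.20 (permutation p = 0.546, adjusted p = 0.819). Without young 5 and young 6, the 2 libraries farthest from the median of miR-1a-3p, r was -0.20. Within young muscle r was -0.18 (exact permutation p = 0.769) and within aged muscle it was -0.09 (exact permutation p = 0.883).

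The level of miR-1a-3p was highest in the 2 deepest libraries, and the relation with depth rested on them. Pearson's r of log2 level with log2 estimated mapped reads was 0.52 (permutation p = 0.0834, adjusted p = 0.250) and Spearman's rho was 0.43 (permutation p = 0.163, adjusted p = 0.488). Without aged 3 and young 6, r was -0.03. Within young muscle r was 0.80 (exact permutation p = 0.114) and within aged muscle 0.07 (exact permutation p = 0.939). For miR-133a-3p, r with depth was 0.01 (permutation p = 0.939, adjusted p = 0.939), rho was 0.01 (permutation p = 0.971, adjusted p = 0.971), and r without aged 3 and young 6 was -0.20. Within young muscle that r was 0.11 (exact permutation p = 0.767) and within aged muscle 0.30 (exact permutation p = 0.658).

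**Figure D3:**
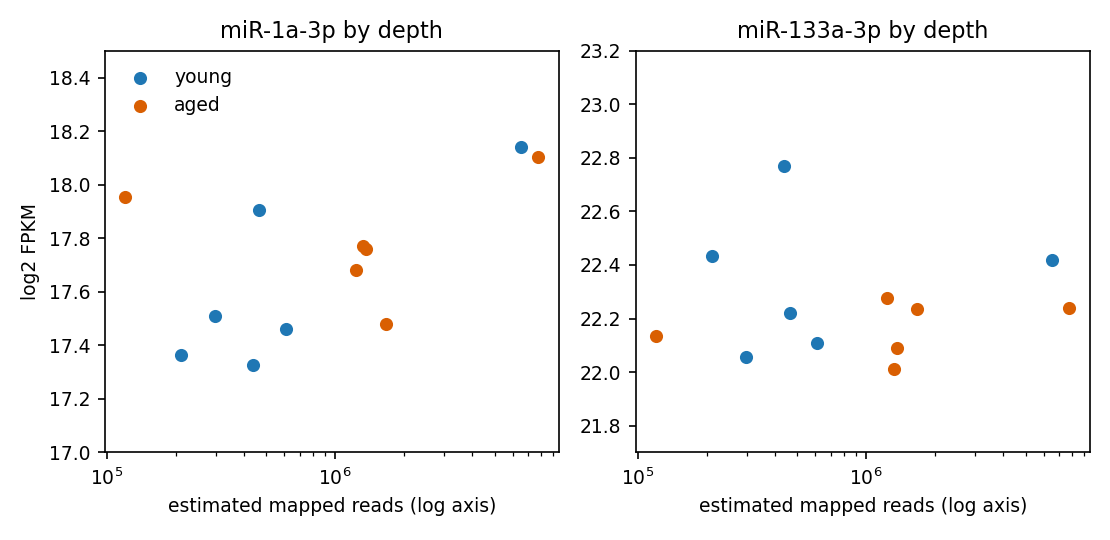
Level of miR-1a-3p (left) and miR-133a-3p (right) in log2 FPKM against the estimated mapped reads of each library on a log axis, with young libraries in blue and aged libraries in orange. The 2 deepest libraries hold the highest miR-1a-3p levels, 288865 FPKM in young 6 and 281936 FPKM in aged 3, whereas for miR-133a-3p they lie within the range of the others.

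The arms of each hairpin were set against each other in the same library. Over all 12 libraries there were 334 miR-133a-3p reads for each miR-133a-5p read, a passenger share of 0.299% (exact 95% binomial interval 0.292 to 0.306%). In single libraries the share ran from 0.247% in young 3 to 0.341% in aged 1, with a median of 0.301%. For miR-1a, with both 5p arms counted together, there were 1637 3p reads for each 5p read, a share of 0.0610% (exact 95% interval 0.0481 to 0.0764%, 76 reads). The miR-133a share was the higher one in 12 of 12 libraries. In the 2 deep libraries, the miR-1a share was 0.0626% in young 6 (exact 95% interval 0.0409 to 0.0918%) and 0.0602% in aged 3 (exact 95% interval 0.0403 to 0.0864%). In young 3 and young 4, which had no 5p read of miR-1a, 3 reads would be shares of 0.244% and 0.381%, and the exact 95% intervals reached 0.300% and 0.467%, above the miR-133a shares of these libraries. The intervals of the 2 families overlapped in young 1 to 5 and in aged 5 and were apart in young 6 and in aged 1, 2, 3, 4 and 6. Intervals and limits cover counting error only.

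**Figure D4:**
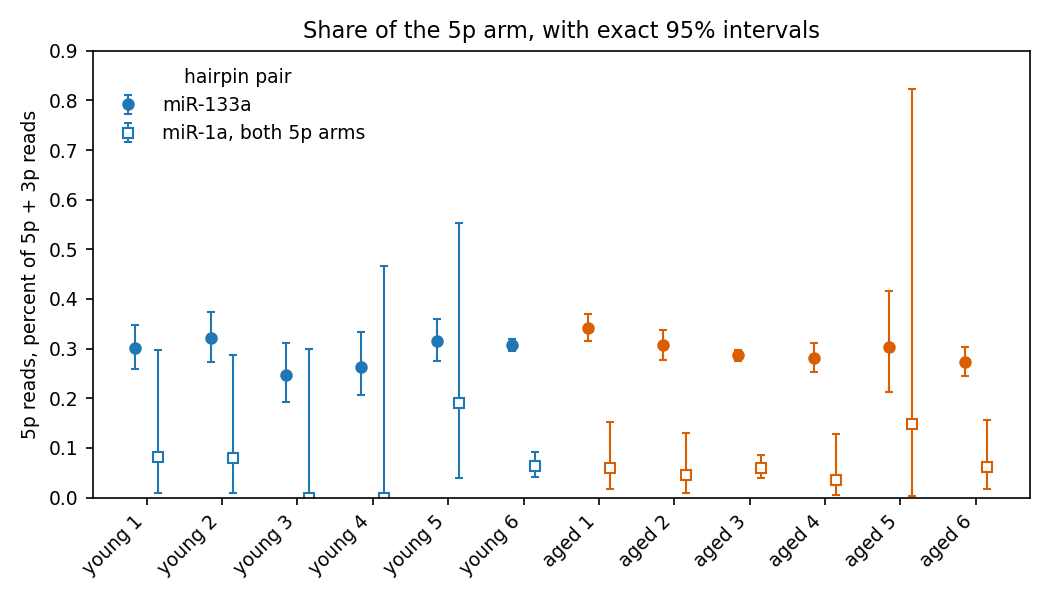
Reads of the 5p arm as a percent of 5p and 3p reads (y axis) in each library, for miR-133a (filled circles) and miR-1a with both 5p arms (open squares), young in blue and aged in orange, with exact 95% binomial intervals as bars. The miR-133a share lies between 0.247% and 0.341%, above the miR-1a share in each library with overlapping intervals in 6, and the miR-1a intervals are narrow only in young 6 and aged 3.

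The arm balance did not differ detectably with age. The log2 ratio of 5p to 3p of miR-133a was -8.41 ± 0.153 in young and -8.38 ± 0.116 in aged muscle (SD, n = 6 each), and it stayed between -8.66 and -8.19 over the 12 libraries. Its difference with age was 0.03 (SE 0.14, 95% interval -0.27 to 0.33, limma adjusted p = 0.955). For Mir1a-1, miR-1a-1-5p was set against miR-1a-3p, which both miR-1a hairpins share, so this is not the ratio of 1 hairpin alone. As for miR-133a, a pseudocount of 48.2 FPKM was added to both arms. The log2 ratio was -10.5 ± 1.17 in young and -10.3 ± 0.546 in aged muscle (SD, n = 6 each). In young 3 and young 4, without a 5p read, it was -11.9 and -11.8, set by the pseudocount and the 3p level. The difference with age was 0.18 (SE 0.49, 95% interval -0.90 to 1.26, limma adjusted p = 0.918). The signs of both age differences turned when single libraries were left out. Neither hairpin was called (0 of 2), where 1 of 139 hairpins (0.719%) was called at an adjusted p under 0.05 and 12.2% at an unadjusted p under 0.05.

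The 5p arms of miR-1a are the only members that tell the genomic copies apart. Of their 76 reads, 66 were miR-1a-1-5p and 10 were miR-1a-2-5p, so that 86.8% came under the name of the chromosome 2 hairpin (exact 95% binomial interval 77.1 to 93.5%). The interval covers counting error and not differences between animals, and young 6 and aged 3 held 26 and 29 of these reads. Strands at the chromosome 18 hairpin are not separated by these values. The share of miR-1a-1-5p was 80.8% in young 6 (21 against 5 reads) and 86.2% in aged 3 (25 against 4 reads). In aged 6 the reads were 3 against 1, and each other library with a read held miR-1a-1-5p alone, with 1 to 4 reads. The log2 ratio of miR-1a-1-5p to miR-1a-2-5p was 1.38 ± 1.20 in young and 1.65 ± 0.756 in aged muscle (SD, n = 6 each, pseudocount of 48.2 FPKM in both), a difference of 0.26 (two-sided exact permutation test, p = 0.645).

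The 3p arms and miR-133a-5p carry the same name at both copies. How reads fitting both places were assigned is not given, so their split between rows does not measure the output of each copy. Reads named miR-1a-3p were split almost evenly between its 2 rows, with 47.8% to 52.1% in the first row and 50% inside the exact 95% interval in 11 of 12 libraries. For miR-133a-3p the first row held 49.8% to 50.3%. As deposited, to 2 decimals of log2, the rows of miR-1a-3p differed in 12 of 12 libraries, by up to 0.13. Those of miR-133a-3p were equal in 6 of 12 and differed by at most 0.02 in the others, so that rounding limits what its rows show. For miR-133a-5p the first row held 47.8% to 60.0% and was the higher one in 10 of 12 libraries. Pooled over the libraries it held 52.2% (exact 95% interval 51.0 to 53.3%), which leaves out 50%, and within libraries the interval left out 50% only in aged 3, at 52.6%. The sums of both rows were used throughout.

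**Figure D5:**
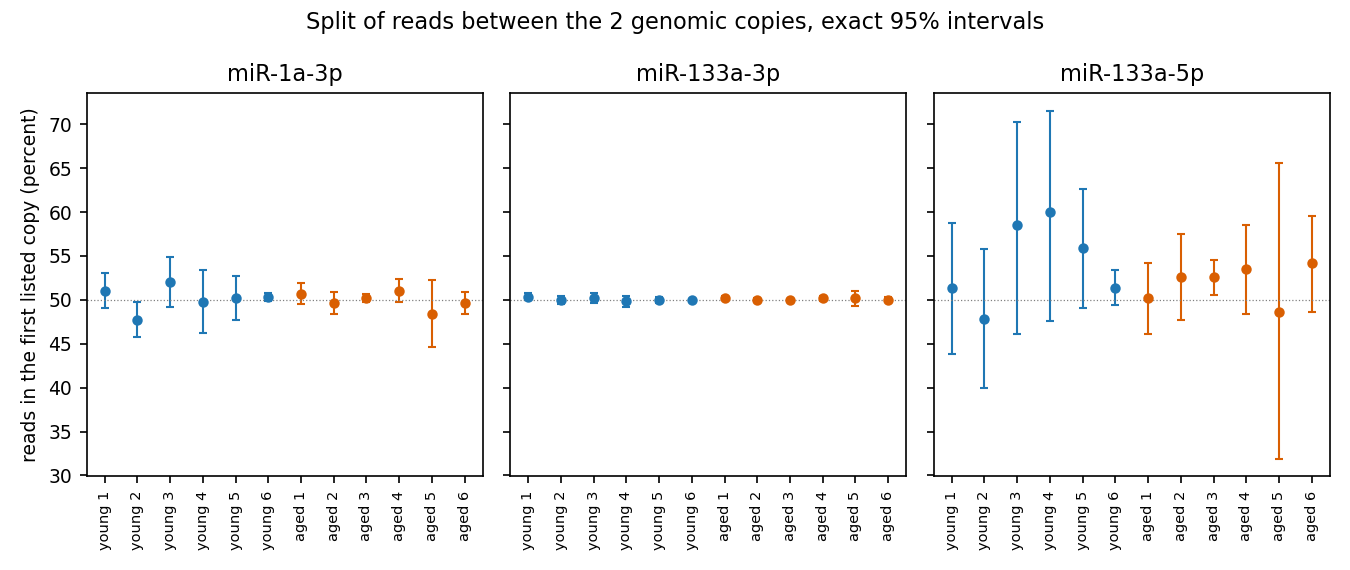
Percent of reads in the first of 2 genomic rows (y axis) for miR-1a-3p, miR-133a-3p and miR-133a-5p in each library, young in blue and aged in orange, with exact 95% binomial intervals, which cover counting error and not the rounding of the deposited values, and a dotted line at 50%. The 3p arms lie at 47.8% to 52.1% and 49.8% to 50.3%, and the first row of miR-133a-5p lies above the line in 10 of 12 libraries.

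One row of miR-1a-3p shared its reads with another name. miR-1b-5p belongs to Mir1b at chr18:10785446-10785567 on the plus strand, which covers Mir1a-2 on the opposite strand. Its log2 level exceeded the first row of miR-1a-3p by 0.07 in each of the 12 libraries, with no spread. The reads of the 2 names are thus the same reads, and these values do not separate the strands at this locus. miR-1b-5p stood in place 24 by mean level, and its log2 change of 0.17 (limma adjusted p = 0.661) is not a second measurement. miR-1b-3p, opposite miR-1a-2-5p, had 6 reads in young 6 and 5 in aged 3.

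The neighbours of the guide arms in order of mean level lay within the spread between libraries. miR-133a-3p (5038510 ± 806006 FPKM, SD, n = 12) came after miR-143-3p, a smooth muscle miRNA (5189840 ± 681940 FPKM, SD, n = 12), which was the higher one in 8 of 12 libraries. It came before miR-22-3p (4721180 ± 911318 FPKM, SD, n = 12), which exceeded it in 1 of 12. miR-1a-3p (217434 ± 42893 FPKM, SD, n = 12) came between miR-30d-5p (240401 ± 35947 FPKM, SD, n = 12), higher in 6 of 12 libraries, and miR-30e-5p (185360 ± 28251 FPKM, SD, n = 12), higher in 3 of 12.

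The miRNAs with the steadiest log2 ratio to each guide arm were different ones. Likeness was the SD over the 12 libraries of the log2 ratio to the member, among 215 miRNAs above 0 in every library. It reads shared scaling as well as shared levels, and it is also small for a miRNA that varies little. Closest to miR-133a-3p were miR-30e-5p (SD 0.12), miR-151-5p (SD 0.12) and miR-30c-5p (SD 0.13), against a median SD of 0.38. Its own 5p arm came in place 4 (SD 0.13), miR-133b-3p in place 16 (SD 0.17) and miR-1a-3p in place 118 (SD 0.39). Closest to miR-1a-3p, after miR-1b-5p with its shared reads, were miR-24-3p and miR-3074-5p (SD 0.26 each), against a median SD of 0.49. These 2 had the same log2 means, the same log2 change (0.24) and the same SE (0.14), so they are not read as separate measurements. miR-133b-3p came in place 11 (SD 0.30) and miR-133a-3p in place 55 (SD 0.39). The log2 level of miR-1a-3p alone had an SD of 0.28, so these 2 ratios varied more than miR-1a-3p itself. The ratios to miR-24-3p and miR-3074-5p varied only slightly less, so none of these 4 is shown to follow miR-1a-3p closely.

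Spread between libraries was compared for the 3 members with reads in every library. Over the 12 libraries the SD of log2 FPKM was 0.21 for miR-133a-3p, 0.28 for miR-1a-3p and 0.28 for miR-133a-5p, against a median of 0.35 over 216 miRNAs above 0 in all libraries. A smaller SD was found for 11.6%, 32.9% and 32.4% of these miRNAs. The 5p arms of miR-1a, with 0 in some libraries, varied more, with a coefficient of variation of 89.7% in young and 74.5% in aged muscle for miR-1a-1-5p.

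The relatives on chromosome 1, miR-206-3p and miR-133b-3p, are transcribed from a separate pair of hairpins, and miR-206 is known for its induction after nerve injury and in regenerating fibres. miR-206-3p was called higher in aged muscle (log2 change 1.54, SE 0.39, limma adjusted p = 0.0296). The call rests on an estimated 141 reads in young (1 to 104 in a library) and 581 in aged muscle (6 to 345). Counting error reached 100% in the library with 1 read. miR-206-3p amounted to 0.388% ± 0.270 of miR-1a-3p in young and 0.867% ± 0.190 in aged muscle (SD, n = 6 each). The ranges of this percent overlapped, with 0.0815% to 0.794% among young and 0.699% to 1.21% among aged libraries. miR-133b-3p amounted to 0.977% ± 0.145 of miR-133a-3p in young and 1.01% ± 0.0870 in aged muscle (SD, n = 6 each), and its log2 change was -0.11 (SE 0.10, limma adjusted p = 0.711). Their passenger arms miR-206-5p and miR-133b-5p were listed at 0 in all 12 libraries, and miR-133c had 4 reads in all.

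Of 6 other muscle-enriched miRNAs, 5 were tested, and 1 was called higher (miR-206-3p; 0.622% of all tested miRNAs were) and 0 lower (2.28% of all tested were). Their median log2 change was 0.79 against 0.07 over all, and this median is the value of miR-499-5p, which had few reads. miR-208b-3p, encoded within a slow myosin gene, gave 1.29 for the log2 change (SE 0.89, limma adjusted p = 0.552). It had 167 estimated reads in all and was above 0 in 7 of 12 libraries. miR-499-5p, encoded within another slow myosin gene, gave 0.79 (SE 0.60, limma adjusted p = 0.613). It had 51 reads and was above 0 in 8 of 12 libraries. miR-486-5p, a muscle and red cell miRNA, gave 0.11 (SE 0.17, limma adjusted p = 0.835).

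Marker miRNAs of other cell types are given for the share-based results, and their part in them was not tested. The 2 smooth muscle miRNAs together held 9.36% to 14.4% of the summed FPKM in young and 11.6% to 13.6% in aged muscle. The 2 endothelial miRNAs held 0.663% to 1.08% and 0.770% to 0.961%, and the 3 fibroblast miRNAs 0.0761% to 0.119% and 0.0745% to 0.134%. The 4 white blood cell miRNAs held 0.0182% to 0.0461% and 0.0259% to 0.0626%, and the 2 red cell miRNAs 0.0126% to 0.0220% and 0.00500% to 0.0236%. The 2 nerve miRNAs reached at most 0.00218% in young and 0.00177% in aged muscle. None of the tested markers passed an adjusted p of 0.05, and the lowest were miR-145a-5p of smooth muscle (log2 change -0.43, limma adjusted p = 0.0975) and miR-144-3p of red cells (log2 change -0.77, limma adjusted p = 0.189). The other smooth muscle miRNA, miR-143-3p, had the opposite sign (log2 change 0.17, limma adjusted p = 0.679). Its mean was 5189840 FPKM against 11115 for miR-145a-5p, so it made up nearly all of their joint share. The other red cell miRNA, miR-451a, gave -0.34 (limma adjusted p = 0.583).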

How the data were processed

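Small RNA was extracted with the mirVana kit, size-selected and sequenced on an Illumina instrument. According to the study's methods, the authors trimmed adaptors, aligned the reads by BWA with its default settings and calculated an FPKM for every mature miRNA of miRBase. The processing notes name mm10 and TopHat2. The deposited values are log2 FPKM to 2 decimals, with 0 for no read, and 76.4% of the table's values were 0. How strand and reads fitting several places were treated is not given in the sources used here. Replicates came from separate animals.

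The log was undone and genomic copies were summed. Reads were estimated from whole-read steps: of 3211 values below 25 reads, 99.4% came within 0.15 of a whole number of reads, with RefSeq lengths for 1603 of 1900 miRNAs. The other lengths were taken as 22 nucleotides, or read from the steps for miR-1a-2-5p and miR-1b-3p, so read numbers are estimates. miRNAs above 0 in at least 5 of 12 libraries (482) were tested as log2(FPKM + 48.2) with limma 3.58.1 in R 4.3.3 (eBayes with trend, two-sided, Benjamini-Hochberg at 0.05, no covariate). The pseudocount of 48.2 FPKM was obtained by taking each library's smallest nonzero value and then the median of the 12, and fold changes on this scale understate those of low miRNAs. The 5p to 3p ratios were fitted likewise over 139 hairpins. Shares and ratios were compared by exact permutation, and correlations used 100000 resamples. Scripts used Python 3.11.15, NumPy 2.4.6, pandas 2.3.3 and SciPy 1.17.1, and were tested on simulated data. The study tested each miRNA without adjustment.

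The members, lists and tests were chosen with earlier results of these data known. miRNAs were named by rule: the members, other muscle-enriched miRNAs, relatives that can share reads or a seed, rows with a constant log2 difference to a member, the 3 most alike, the neighbours by level and cell type markers. miR-206-5p and miR-133b-5p were added as the partner arms of 2 relatives. Alternatives were pseudocounts of 1 and 482 FPKM, other filters, quantile and median-of-ratios scaling, depth as a covariate, voom, a fit without trend, permutation of each miRNA on its own, shared reads counted once, the highest copy alone, the highest miRNA left out of shares, relatives added, a replicate block and leaving out each library.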

Additional observations from a re-analysis of the deposited data

Results flagged for a closer look

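In 28 groups of 6 libraries, 7 held a value far from the others by Dixon's criterion at the 95% level. Chance would give about 1.4 if the groups were independent and without ties. They were not, because several groups hold the same reads and some are tied at 0, so the 2 numbers cannot be compared. In aged 5, the shallowest library, the single read of miR-1a-1-5p gave a log2(FPKM + 48.2) of 8.67 (other aged libraries 6.89 to 7.56), a log2 ratio of 5p to 3p of -9.28 (others -10.8 to -10.2), a log2 ratio to miR-1a-2-5p of 3.08 (others 0.86 to 1.66) and a share of 0.000780% of the summed FPKM (others 0.000152% to 0.000320%). In young 6, miR-1a-2-5p had a log2(FPKM + 48.2) of 6.35 and a share of 7.68e-05%, and it was at 0 in the other young libraries. In aged 1, miR-133a-5p held 0.0425% of the summed FPKM (others 0.0273% to 0.0326%).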

How the results depend on the processing

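Of 246 alternative values for 13 results on the members, 232 kept their sign and side of the threshold, 14 changed sign and 0 changed the call. The log2 changes with age ran from 0.10 to 0.21 for miR-1a-3p, from -0.20 to -0.15 for miR-133a-3p and from -0.21 to -0.14 for miR-133a-5p over other settings. The signs that turned belonged to small differences or to the few reads of the miR-1a 5p arms. The change of miR-1a-1-5p was -0.27 with voom, 1.94 with a pseudocount of 1 FPKM and 0.05 with 482 FPKM. The change of its arm ratio was 1.77 and -0.13 with these pseudocounts, and that of the log2 ratio of the miR-1a 5p arms was 1.19 with 1 FPKM. The share difference of miR-1a-3p was 0.0177 with the highest copy alone. Leaving out 1 library, the arm ratio of miR-133a ran from -0.0188 to 0.0571 (negative without young 3, -0.0188, or aged 1, -0.00974). That of Mir1a-1 ran from -0.10 to 0.50 (negative without young 3, -0.10, young 4, -0.07, or aged 5, -0.03). The share of miR-1a-1-5p ran from -6.90e-05 to 0.000104 (-3.90e-05 without young 3 or young 4, lowest without aged 5), and that of miR-1a-2-5p from -2.60e-06 to 2.14e-05 (negative without aged 6). The log2 ratio of the miR-1a 5p arms ran from -0.02 to 0.55 (-0.0146 without young 3 or young 4, -0.0243 without aged 5). The cause was not tested. The number of all miRNAs called was 14, and 6 with a pseudocount of 1, 7 without a filter, 8 with a filter on the mean, 8 with depth as a covariate, 7 with shared reads counted once and 0 with a permutation test per miRNA. It ran from 6 to 15 when 1 library was left out. The number of hairpins called was 1, and 0 with a pseudocount of 1, 3 with 482 FPKM, 2 with both arms above 0 in all libraries, 0 without trend and 0 with a permutation test, and ran from 0 to 3 when 1 library was left out. Same-numbered young and aged libraries did not deviate together (r from -0.09 to 0.09, 0 of 6 best with their own number). With the replicate block, 2 hairpins and 14 miRNAs were called, the exact p of the ratio of miR-1a-3p to miR-133a-3p was 0.188, and no call on a member changed. Depth leaves the miR-1a 5p arms with more than 4 reads only in young 6 and aged 3.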
